A study of Mus musculus with 3 samples.

Results

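The Thbs4, Cilp and Col8a1 fibroblasts of mouse dorsal skin were a set of 830 cells among 13214 fibroblasts and 32377 cells that passed the filter on cells. They were chosen by their own counts. A fibroblast was a cell in which Dcn, Lum, Col1a1, Col1a2 and Col3a1 together made up at least 1% of the UMIs and which held no UMI of Ptprc, Epcam or Cdh5, the marks of leukocytes, epithelium and endothelium. A UMI is a tag that marks 1 captured RNA molecule. A fibroblast became a member when it held at least 1 UMI in at least 3 of the 5 genes Thbs4, Col8a1, Lsamp, Frmpd4 and Musk, which are called the rule genes here. The control library (CON) held 326 members, the UV library (UV) 242, and the library given UV and ruxolitinib (Rux) 262.

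Skin came from wild type C57BL/6J mice that were 8 weeks old at the start and are labelled female. CON mice were not irradiated and received the ointment base without the drug. UV mice received the same base and mixed light every other day for 12 weeks, with a UVA intensity of 0.6 mW/cm2 and a UVB intensity of 3.5 mW/cm2. Rux mice received the same light and then, after each exposure, an ointment with 1.5% ruxolitinib, an inhibitor of the kinases JAK1 and JAK2. All skin was taken 24 hours after the last exposure, at full thickness, and each condition gave 1 droplet-based 3′ library. CON, UV and Rux held 165337289, 133972374 and 131570327 UMIs over 13170, 12411 and 11287 barcodes, and the members carried 2456967, 1948015 and 3232123 of these UMIs. With 1 library per condition no test between conditions was possible, so no p-value is given. Every interval below is a 95% interval that covers counting error only, and differences between animals could not be told apart from differences between conditions. The number of mice behind a library was not given in the sources used here.

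The libraries went against their label of sex. Xist, the RNA that coats the inactive X chromosome of female cells, had 0 UMIs in the members of CON, UV and Rux, with upper interval bounds of 1.50, 1.89 and 1.14 CPM, which is a gene's UMIs scaled to a fixed total of UMIs over the cells summed. Ddx3y, a gene of the Y chromosome, stood at 186, 176 and 177 CPM in members. Uty, Eif2s3y and Kdm5d, also on the Y chromosome, were present in all 3 libraries. The libraries are therefore named by condition only. CON and UV shared 50 cell barcodes, CON and Rux 28, and UV and Rux 40, and none of these was a member barcode in both libraries of a pair.

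Dermal fibroblasts build the collagen and elastic fibre network of skin, and they fall into groups that differ by depth and by nearby structures such as hair follicles, vessels, nerves and fascia. Thbs4 (thrombospondin 4) is a secreted glycoprotein known from tendon and muscle attachments. Cilp (cartilage intermediate layer protein) is a secreted matrix protein that binds TGF-β. Col8a1 encodes a short-chain collagen that forms networks and not fibrils. Myoc (myocilin) is a secreted olfactomedin-domain protein known from the outflow tissue of the eye. Lsamp is an adhesion protein of the IgLON family best known from neurons, Frmpd4 is a scaffold protein of synapses, and Musk is the receptor tyrosine kinase that organizes the neuromuscular junction.

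The 150 bases before the start sites of 4 label genes are shown here. Thbs4, Cilp and Col8a1 name the set, and Myoc is a further marker of it. The rule used Thbs4 and Col8a1 and did not use Cilp or Myoc. All 4 were named as markers with earlier results of these data known. Sequences are from RefSeq in build GRCm38.p6, written 5′ to 3′ on the gene's own strand, with capitals at each match to a searched motif on either strand. The windows lie at chr13:92794819-92794968 (minus strand) for Thbs4, chr16:57754738-57754887 (minus strand) for Col8a1, chr9:65265030-65265179 (plus strand) for Cilp and chr1:162639000-162639149 (plus strand) for Myoc.
Thbs4: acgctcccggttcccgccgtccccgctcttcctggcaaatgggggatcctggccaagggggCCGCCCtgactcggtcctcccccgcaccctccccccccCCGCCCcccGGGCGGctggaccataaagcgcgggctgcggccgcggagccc
Col8a1: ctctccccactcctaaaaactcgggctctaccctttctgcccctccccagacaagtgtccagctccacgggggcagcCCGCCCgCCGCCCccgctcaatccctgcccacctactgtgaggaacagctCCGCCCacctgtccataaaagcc
Cilp: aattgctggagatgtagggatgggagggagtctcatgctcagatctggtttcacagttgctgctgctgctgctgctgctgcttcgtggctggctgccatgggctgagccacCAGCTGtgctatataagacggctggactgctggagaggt
Myoc: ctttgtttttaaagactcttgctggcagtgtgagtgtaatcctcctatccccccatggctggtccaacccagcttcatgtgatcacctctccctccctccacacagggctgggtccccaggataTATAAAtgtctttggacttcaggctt
Thbs4 and Col8a1 each held 3 matches to the GC box GGGCGG, which 28.6% of all 32851 promoter windows of this length held at least once. Cilp held the E-box CAGCTG, which 8.39% of windows held, and Myoc held TATAAA 26 bases before its start, which 7.57% of windows held. The other 6 motifs searched were the CCAAT box (24.5% of windows), the AP-1 motif TGANTCA (4.24%), the TEAD motif CATTCC (7.59%), the MEF2 motif (0.067%), the GATA motif AGATAAG (1.48%) and the STAT motif TTCNNNGAA (4.09%), all read on both strands. None of these 6 had a match in the 4 windows. Among the other genes searched, whose windows are not printed, Lsamp held a CCAAT box 133 bases and Musk an E-box 68 bases before the start. A match is a description of the letters, and reads from the 3′ ends of transcripts do not measure these windows.

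The members formed a smaller share of fibroblasts in UV and Rux than in CON. They were 9.93% of fibroblasts in CON (95% Clopper-Pearson interval 8.93 to 11), 4.69% in UV (4.13 to 5.30) and 5.49% in Rux (4.86 to 6.18). As a share of all cells kept, the values were 2.85%, 2.19% and 2.65%. The fibroblast total was 3283 in CON, 5160 in UV and 4771 in Rux, so the number of members varied less than the number of cells they were divided by. Members were also deeper than the other fibroblasts, with medians of 7056, 7841 and 11001 UMIs against 5629, 6990 and 9643. A rule that needs a UMI in 3 genes is met more often in deep cells. After each cell was thinned to 5000 UMIs, 193 of 1961 fibroblasts in CON (9.84%), 152 of 3554 in UV (4.28%) and 152 of 3879 in Rux (3.92%) met the rule. Shallower cells left out numbered 1322, 1606 and 892, and before thinning the same deep cells gave 13.9%, 5.80% and 6.50%. CON was highest with and without thinning, and the intervals of UV and Rux overlapped both ways. Tissue was dissociated before capture, and the part of dissociation in these shares was not tested.

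**Figure D1:**
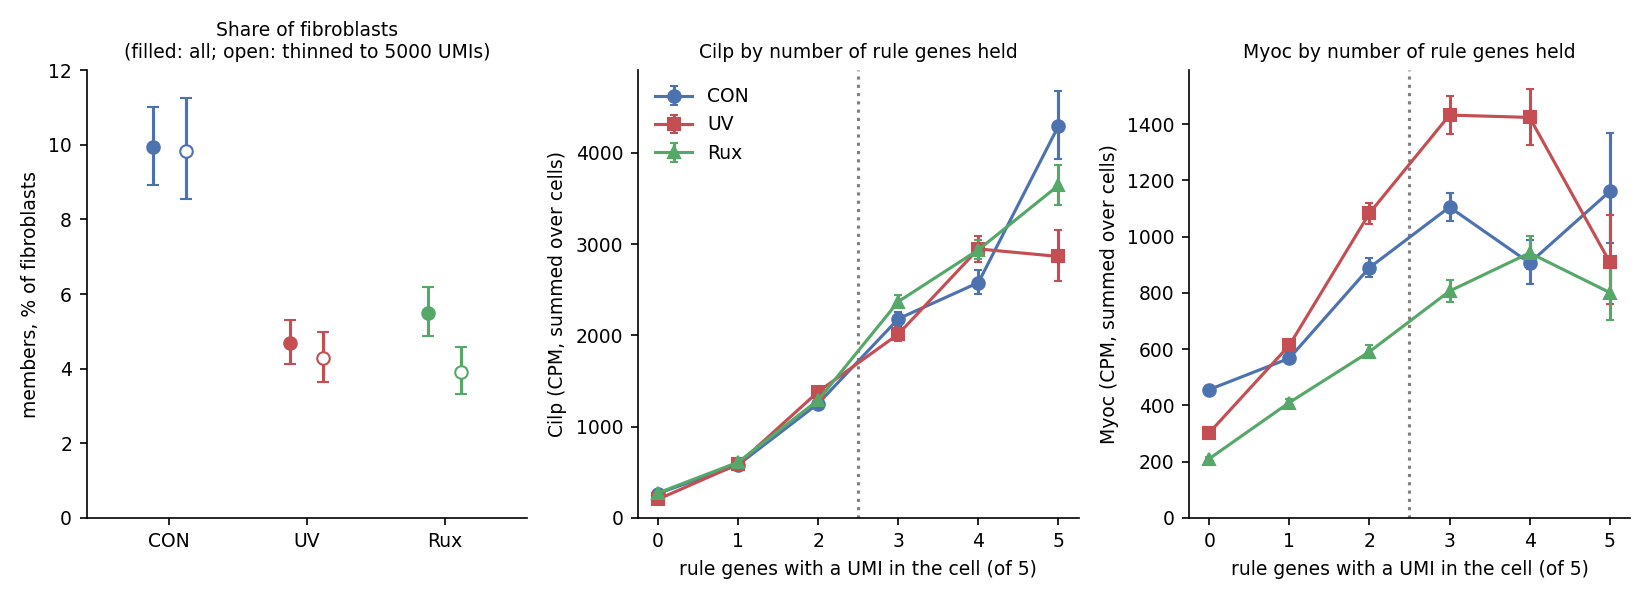
Left, members as a percentage of fibroblasts in each library, with all UMIs (filled) and after thinning to 5000 UMIs per cell (open), bars being 95% Clopper-Pearson intervals; CON was at 9.93% and UV and Rux at 4.69% and 5.49%. Middle and right, summed CPM of Cilp and Myoc in fibroblasts grouped by how many of the 5 rule genes they held, with 95% Poisson intervals and a dotted line between 2 and 3, where the threshold lies; Cilp was lowest, at 203 to 273 CPM, in cells that held none.

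The combination was also counted in cells outside the fibroblast gate. Among cells rich in keratin genes, which should lack the rule genes, 1 of 834 in CON, 0 of 192 in UV and 2 of 319 in Rux held at least 3 of them, at median depths of 13414, 17960.5 and 17382 UMIs. The 0 of 192 allows a share of up to 1.56%. Among cells with a Ptprc UMI, 2 of 740, 1 of 703 and 3 of 1241 did. It was more frequent in cells rich in the collagen and proteoglycan genes of the gate that were left out for a Ptprc, Epcam or Cdh5 UMI, with 27 of 409 (6.60%), 22 of 454 (4.85%) and 28 of 461 (6.07%). Single rule genes were less clean, since 16.1% of the keratin-rich cells of UV held a Col8a1 UMI and 12.9% of its Ptprc cells a Lsamp UMI, above the 10.7% and 7.44% in fibroblasts outside the set. Depth differed, with medians of 17960.5 UMIs in these keratin-rich cells, 6520 in the Ptprc cells and 6990 in those fibroblasts. The fibroblasts outside the set also exclude all that met the rule. Cells with the highest doublet scores included 1, 11 and 13 of the members, that is 0.307%, 4.55% and 4.96%, against 3.01%, 6.28% and 6.63% of the other fibroblasts.

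Which rule genes a member held differed between libraries. Lsamp was held by 89.3% of members in CON, 86.0% in UV and 82.1% in Rux. Col8a1 was held by 88.3%, 77.3% and 79.0%, and Thbs4 by 84.7%, 69.4% and 78.2%. Frmpd4 was held by 40.5%, 54.5% and 47.7%, and Musk by 29.1%, 55.8% and 59.5%. Thbs4, Col8a1 and Lsamp without the other 2 made up 131 members in CON, 39 in UV and 44 in Rux, and this combination was the most frequent in each library. All 5 genes were held by 16, 17 and 20 cells. Just inside the threshold, 238, 155 and 160 fibroblasts held 3 rule genes, and just outside it 388, 338 and 365 held 2.

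Levels of the rule genes in members follow from the choice and are given as a description. Thbs4, on chromosome 13 (92751590 to 92794818 in mm10, minus strand), stood at 980, 686 and 853 CPM in members of CON, UV and Rux and at 68.5, 29.6 and 33.1 CPM in the other fibroblasts. Col8a1, on chromosome 16 (57624258 to 57754737), stood at 814, 549 and 381 CPM against 98.9, 48.4 and 37.6 CPM. Lsamp, also on chromosome 16 (39984361 to 42181679), stood at 504, 513 and 385 CPM against 97.1, 26.0 and 25 CPM. Its level in other fibroblasts was highest in CON, so the gap between members and others was narrower there. Frmpd4, on the X chromosome (167471309 to 168577231), stood at 203, 315 and 216 CPM, and Musk, on chromosome 4 (58285960 to 58374303), at 55.8, 160 and 158 CPM. Fibroblasts that held at least 2 of the other 4 rule genes also held more of the remaining gene than fibroblasts that did not. Thbs4 was then 3.03, 3.49 and 3.71 higher on the log2 scale in CON, UV and Rux, Col8a1 2.57, 2.90 and 2.66, Frmpd4 3.10, 3.27 and 3.20, Lsamp 1.72, 3.34 and 2.94, and Musk 1.41, 1.99 and 1.88. These cells come from the same libraries and are deeper than the rest. The rule genes were also chosen with earlier results of these data known. The values therefore describe co-occurrence within libraries and do not test the rule.

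Cilp and Myoc, the label genes outside the rule, were both higher in members. They were named as markers with earlier results of these data known, so their levels are a description too. Cilp, on chromosome 9 (65265180 to 65280605), stood at 2377 CPM in CON, 2349 in UV and 2662 in Rux members, against 515, 383 and 458 CPM in the other fibroblasts. A Cilp UMI was found in 98.5%, 97.5% and 98.9% of members and in 51.8%, 39.8% and 53.5% of the others. The log2 ratio was 2.21 in CON (2.16 to 2.25), 2.62 in UV and 2.54 in Rux. Cilp also followed the number of rule genes held below the threshold. In CON it was 267 CPM in fibroblasts with no rule gene, 580 CPM with 1, 1252 CPM with 2, 2180 CPM with 3 and 4294 CPM with 5. In UV and Rux the cells with 2 rule genes stood at 1382 and 1289 CPM and those with 3 at 2012 and 2369 CPM. Cilp thus passed the threshold without a step, and the members were the upper end of a range. Myoc, on chromosome 1 (162639155 to 162649693), stood at 1061, 1390 and 848 CPM in members against 556, 434 and 299 CPM. Its log2 ratio was 0.93 in CON, below 2-fold, and 1.68 and 1.51 in UV and Rux. In CON fibroblasts grouped by 0 to 5 rule genes held, Myoc was 456, 567, 889, 1105, 906 and 1160 CPM. In UV the same groups gave 302, 613, 1083, 1432, 1424 and 909 CPM. In Rux they gave 210, 410, 591, 806, 942 and 801 CPM. Up to 3 rule genes the level was higher with each gene held in all 3 libraries, while the groups with all 5 rest on 16, 17 and 20 cells. Of the label genes that the rule did not use, Cilp was thus at least 2-fold higher in all 3 libraries and Myoc in UV and Rux.

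Over the genes whose mean level reached 10 CPM, members stood at least 2-fold above the other fibroblasts in all 3 libraries for 41 of 8198 genes (0.5%) and at least 2-fold below them for 74 (0.903%). In 1 library alone, 1.1% of these genes were at least 2-fold higher in CON, 2% in UV and 1.27% in Rux, and 2.88%, 2.98% and 2.4% at least 2-fold lower, which are the shares beside which the counts of lists below stand. These counts contain the rule genes, and because the members were selected on counts in the same cells they carry no test. Outside the rule, Kcnma1, the calcium-activated potassium channel BK, led the higher genes. Kcnma1 stood at 49.7, 159 and 76.4 CPM in members of CON, UV and Rux against 5.66, 6.33 and 4.75 CPM, a log2 ratio of 3.13, 4.65 and 4.01. Kcne4, an accessory subunit of potassium channels, was higher by 1.33, 1.57 and 1.27. Bmp5, a secreted ligand of the BMP family, stood at 107, 73.4 and 121 CPM against 23.1, 6.97 and 11.9 CPM, or 2.22, 3.40 and 3.35 on the log2 scale. Gfra1, the receptor subunit that binds GDNF, was higher by 1.33, 1.57 and 1.47, and Tac1, the precursor of substance P, by 1.45, 1.69 and 2.71. Grm8, a metabotropic glutamate receptor, was higher by 1.88, 2.08 and 2.01.

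Several of the other named genes encode matrix proteins. Ccn2, a matricellular target of TGF-β and YAP signalling, stood at 648, 324 and 472 CPM in members against 121, 87.5 and 171 CPM, so its ratio narrowed from 2.42 in CON to 1.89 in UV and 1.46 in Rux. Mfap4, a microfibril-associated protein of elastic fibres, stood at 632, 751 and 794 CPM against 211, 211 and 306 CPM. Hmcn2, a very large basement membrane protein, was higher by 1.77, 1.63 and 1.47, and Mgp, the matrix Gla protein that inhibits calcification, by 1.21, 1.35 and 1.55. Fbln7, an adhesion protein of the fibulin family, was higher by 1.87, 1.80 and 1.19. Fibin stood at 205, 219 and 202 CPM in members against 37.6, 45.9 and 52.5 CPM. The kinase Pak1 and the redoxin Nxn were also among the 20 genes with the largest minimum ratio over the libraries. These 20 genes, which include all the rule genes, had a median span of 106 kb in the annotation. The median was 29.6 kb for all genes tested and 38.3 kb for genes of at least 50 CPM in members. It was 73.5 kb for the 15 genes with the lowest maximum ratio over the libraries. Long spans were thus not particular to the genes higher in members. Whether reads in introns were counted is not given in the sources used here, and the part of gene length in these ratios was not tested.

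**Figure D2:**
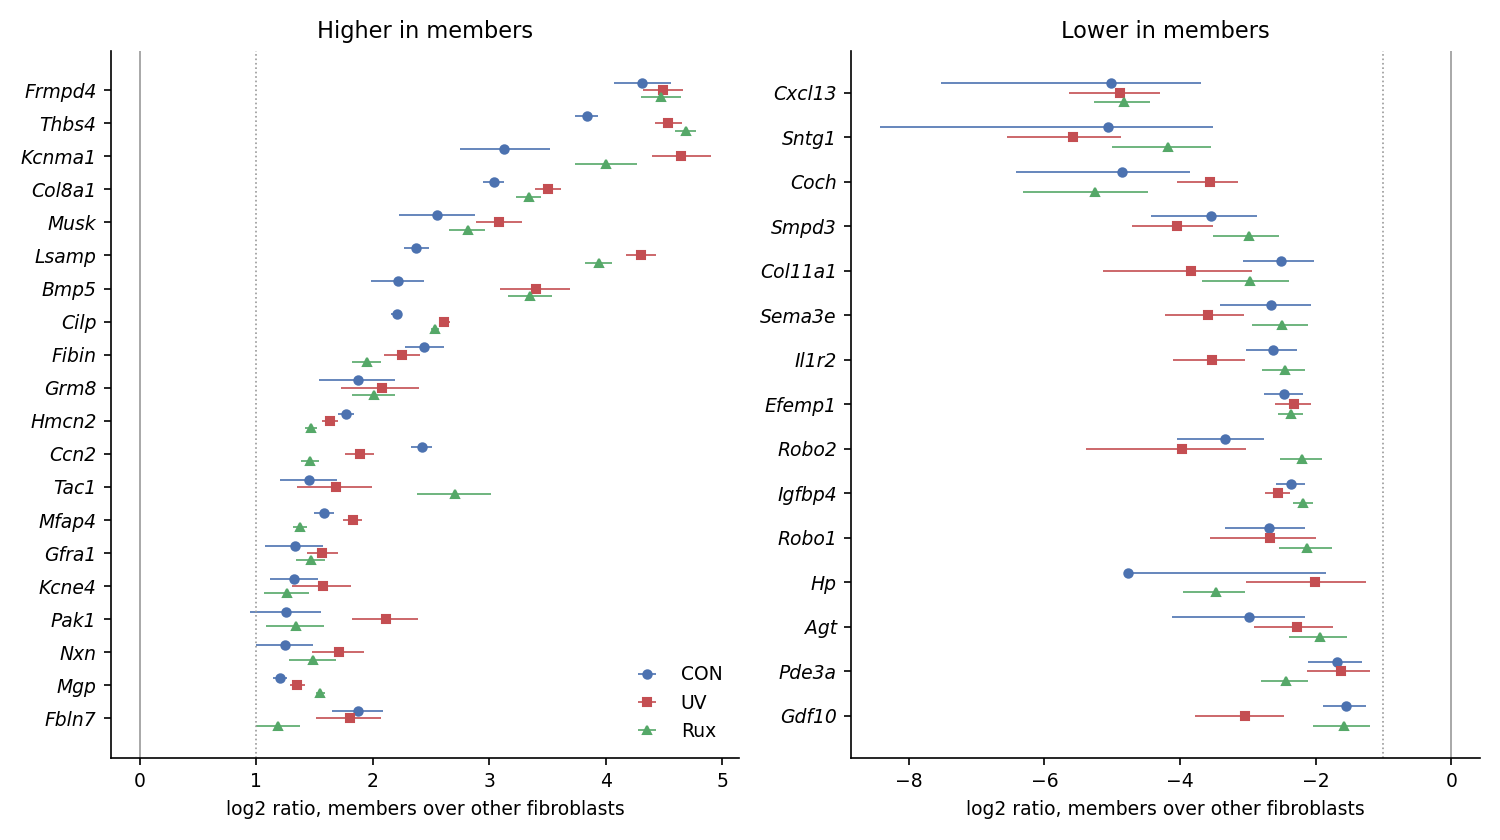
Log2 ratio of summed CPM in members over the other fibroblasts for the 20 genes with the largest minimum ratio (left) and the 15 with the lowest maximum ratio (right), in CON (circles), UV (squares) and Rux (triangles), with 95% counting intervals; dotted lines mark 2-fold. All points on the left lie above 1, with Frmpd4 and Thbs4 at the top, and Cxcl13 and Sntg1 lead the genes on the right, where the CON point of Hp rests on 0 UMIs in members and is no measured ratio.

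A list of 23 genes that mark other groups of fibroblasts was written with earlier results of these data known. Its counts are therefore a description and no test. All 23 passed the minimum level. Of these, 17 were at least 2-fold lower in members of CON, 17 in UV and 10 in Rux, where 2.88%, 2.98% and 2.4% of all genes were. In Rux 2 were at least 2-fold higher, Igfbp2 (1.90) and Grem1 (1.49). Both rest on the 20 Rux members that held an Igfbp2 UMI, and both were at 0 in the other 242. Without those 20 cells the median of this list in Rux was −1.82 in place of −0.83. Of the 23, 9 were at least 2-fold lower in all 3 libraries and 0 were higher in all 3, and their median log2 ratio was −1.75, −2.01 and −0.83 in CON, UV and Rux against −0.03, −0.01 and −0.06 over all genes. Cxcl13, a chemokine that draws B cells, stood at 1.22, 10.3 and 15.5 CPM in members against 46.1, 312 and 444 CPM, on 3, 20 and 50 UMIs. Coch (cochlin) stood at 2.44, 21.6 and 3.40 CPM against 76.9, 257 and 135 CPM. Smpd3, a sphingomyelinase, was lower by log2 ratios of −3.54, −4.05 and −2.99, and the guidance ligand Sema3e by −2.66, −3.58 and −2.49. The axon guidance receptors Robo1 and Robo2 were lower in all 3 libraries, and so were the decoy receptor Il1r2 and the phosphodiesterase Pde3a. The growth factor gene Gdf10 had ratios of −1.56, −3.04 and −1.59, and Sntg1 of −5.06, −5.58 and −4.18. Hp (haptoglobin) had 0 UMIs in CON members, 12 in UV and 41 in Rux, where the other fibroblasts stood at 5.50, 25.9 and 142 CPM.

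Of the 7 papillary genes that the study lists as markers of dermal position, 6 were tested, and Efemp1 and Wif1 were at least 2-fold lower in all 3 libraries. Of the 6, 1 was above 0 in CON, 1 in UV and 2 in Rux, with medians of −2.07, −1.40 and −0.43. Efemp1, a fibulin of elastic fibres, stood at 41.1, 62.1 and 79.8 CPM in members against 228, 312 and 412 CPM. Wif1, a secreted Wnt inhibitor, stood at 2.44, 5.13 and 3.09 CPM against 16.6, 20.8 and 21.1 CPM. Col6a6 went the other way, with log2 ratios of 0.71, 0.82 and 0.87. Of the study's reticular genes, 5 of 6 were tested. Col11a1 was lower in all 3 libraries, with 13.4, 4.11 and 6.81 CPM against 77.4, 62.1 and 54.2 CPM. When cells with at least 2 rule genes were taken as members, its log2 ratio in Rux was 0.055 (−0.10 to 0.21). Lox, the enzyme that cross-links collagen and elastin, was higher by 0.81, 0.98 and 0.62. Of the 5 reticular genes 4 were above 0 in CON, 2 in UV and 4 in Rux, with medians of 0.47, −0.04 and 0.25, and Dcn, which also helped to define a fibroblast, was among them. Of 11 tested genes of adventitial and fascial fibroblasts, among them Pi16 and Dpp4, 9 were below 0 in each library and none was 2-fold lower in all 3. In the list of follicle dermal cells, 3 of 6 tested genes were lower in all 3 libraries, namely Ednrb, Acta2 and Tagln.

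Of 8 tested fibrillar collagen genes, 4 were at least 2-fold lower in members of CON, 3 in UV and 1 in Rux, beside 2.88%, 2.98% and 2.4% of all genes, and 1, Col11a1, was in all 3. Col1a1 stood at 1571, 1362 and 2427 CPM in members of CON, UV and Rux against 8274, 4443 and 4342 CPM, and Col3a1 at 2344, 1534 and 3543 CPM against 5299, 4426 and 5115 CPM. The genes that defined a fibroblast include both, and these 5 genes together made up 2.03%, 1.95% and 2.32% of UMIs in members and 3.59%, 2.68% and 2.68% in the other fibroblasts. The median log2 ratio of the 8 was −0.86, −0.78 and −0.46, and in Rux it was 0.11 when cells with at least 2 rule genes were taken as members. Of the 9 tested genes of small leucine-rich proteoglycans, which coat collagen fibrils, 2 were at least 2-fold higher in CON, 4 in UV and 1 in Rux, beside 1.1%, 2% and 1.27% of all genes, and none was in all 3. Of these, 8 were above 0 in CON and all 9 in UV and Rux, with medians of 0.71, 0.88 and 0.51. Decorin (Dcn) stood at 12017, 12120 and 12132 CPM against 11532, 10612 and 10174 CPM, or 0.06, 0.19 and 0.25 on the log2 scale. Asporin (Aspn), which binds collagen and TGF-β, stood at 1053, 1145 and 858 CPM against 438, 440 and 438 CPM. Biglycan (Bgn) was higher by 0.83, 0.88 and 0.82, Podn by 0.62, 1.29 and 1.15, and Prelp by 0.80, 1.02 and 0.85. Sparc, a collagen-binding matricellular protein, was lower by log2 ratios of −1.39, −1.28 and −0.36.

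Of 17 tested elastic fibre genes, 10 were above 0 in CON, 7 in UV and 9 in Rux. Eln (tropoelastin) stood at 456, 307 and 700 CPM in members against 132, 157 and 271 CPM, and Ltbp4, which binds latent TGF-β and is needed for elastic fibre assembly, at 510, 287 and 418 CPM against 263, 132 and 146 CPM. In this list 1 gene, Mfap4, was at least 2-fold higher and 1, Efemp1, at least 2-fold lower in all 3 libraries. Without the members that held an Igfbp2 UMI, described below, Mfap4 was 0.89 higher in Rux, which is below 2-fold. Besides Thbs4, which the rule used, 3 thrombospondins were tested. Thbs1 was higher by 1.54, 1.28 and 0.77, Thbs3 by 0.73, 0.55 and 0.45, and Thbs2 by 0.45, 0.73 and 0.21. Of 25 tested genes of TGF-β and BMP signalling 14, 14 and 16 were above 0 in CON, UV and Rux, with medians of 0.10, 0.12 and 0.09. In all 3 libraries 1, Bmp5, was at least 2-fold higher and 2, Gdf10 and Chrdl1, at least 2-fold lower. Inhba, the activin A subunit, had ratios of 1.40, 1.97 and 0.62, Bmp4 of 0.78, 1.60 and 0.85, and Chrdl1, a BMP antagonist, of −1.53, −1.18 and −1.81. Of 10 tested genes of insulin-like growth factors (IGF) and their binding proteins, 5, 6 and 5 were above 0 in CON, UV and Rux. Their medians were 0.05, 0.12 and 0.06, and Igfbp2 was higher in Rux (1.90). A pair of the binding proteins, which hold IGF ligands outside cells, was lower in all 3 libraries. Igfbp4 stood at 73.7, 124 and 118 CPM against 380, 731 and 540 CPM and Igfbp5 at 110, 91.4 and 190 CPM against 651, 483 and 441 CPM. Of 12 tested Wnt pathway genes, Wif1 and Wnt5b were lower in all 3 libraries and none was higher.

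Of 7 tested IgLON and neural adhesion genes, 1 was at least 2-fold higher in CON, 3 in UV and 2 in Rux, and 1, 2 and 2 were at least 2-fold lower. Each count of higher genes includes Lsamp, which the rule used, and the shares of all genes were 1.1%, 2% and 1.27% higher and 2.88%, 2.98% and 2.4% lower. Nlgn1, a synaptic adhesion protein, had ratios of 0.30, 1.68 and 1.24, and Cadm1, an adhesion protein of the immunoglobulin family, of 0.26, 1.42 and 0.65. The Lsamp relative Negr1 was lower, at 10.2, 7.70 and 3.40 CPM against 32.7, 27.3 and 11.9 CPM. Opcml, another IgLON, stood at 335, 455 and 304 CPM against 572, 852 and 488 CPM. In the list of MuSK partners, only Musk and Agrn passed the minimum level, and Agrn, the nerve-derived ligand, had ratios of 0.55, −0.14 and 0.14. Homer1, a scaffold that binds Frmpd4, had ratios of 0.14, 0.58 and 0.36. Of 6 tested genes of nerve sheath cells, 3 were above 0 in CON, 2 in UV and 4 in Rux, with medians of 0.12, −0.11 and 0.21, and none was 2-fold higher in all 3 libraries. The highest of them, Abca8a, a lipid transporter, stood at 820, 680 and 526 CPM in members against 393, 281 and 267 CPM, just short of 2-fold in Rux. Of the 12 tendon and ligament genes 6 were tested, of which 3 were at least 2-fold higher in CON, 2 in UV and none in Rux. Their medians were 0.93, 0.88 and 0.13, with 5, 5 and 3 genes above 0, and the Rux median was below 0 under 5 of 14 alternative settings. Fmod had ratios of 1.35, 1.60 and 0.49, Tnc of 1.05, 1.72 and −0.22, and Prg4 of 1.23, −0.04 and 0.57. The tendon transcription factors Scx and Mkx did not reach the minimum level, and Tnmd, the tendon protein tenomodulin, had ratios of −0.77, 0.25 and −0.45.

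The levels of markers of other cell types stand beside these values. The 10 skeletal muscle genes summed to 37.0, 19.5 and 11.1 CPM in members and to 98.0, 19.5 and 25.4 CPM in the other fibroblasts. Pax7, Myod1 and Myf5, which define muscle precursors, were at 0 in the members of every library, and the most abundant were Acta1 with 26 UMIs in CON and Tnnt3 with 12 and 14 UMIs in UV and Rux. The 6 Schwann cell genes summed to 7.73, 18.5 and 6.50 CPM against 20.3, 25.5 and 11.8 CPM, with Foxd3 at 0 in each library, and the 8 genes of pericytes and smooth muscle to 65.9, 122 and 78.3 CPM against 290, 182 and 165 CPM. The 8 keratinocyte genes summed to 367, 194 and 184 CPM in members and to 448, 204 and 215 CPM in the others, with Krt14 the most abundant. The 7 endothelial genes summed to 37.9, 57.5 and 38.1 CPM in members and to 19.4, 50.6 and 29.9 CPM in the others, so members stood above the others in each library. The 8 immune genes summed to 26.9, 35.4 and 20.7 CPM against 35.5, 25.4 and 27.9 CPM. The 8 cartilage and bone genes summed to 97.7, 66.7 and 49.2 CPM against 98.4, 71.7 and 68.5 CPM. Runx2 was the most abundant of them, at 65.9, 49.3 and 34.0 CPM against 53.3, 41.0 and 43.4 CPM. Col2a1, Ibsp, Bglap and Sp7 were at 0 in the members of every library. The 6 fat cell genes summed to 144, 301 and 128 CPM against 218, 372 and 445 CPM. Lpl was the most abundant, at 138, 294 and 115 CPM against 203, 358 and 407 CPM. Adipoq was at 0 in the members of CON and UV. The 4 melanocyte genes summed to 62.3, 75.5 and 29.4 CPM against 80.5, 96.4 and 57.3 CPM. Of the 8 general fibroblast genes 4 were above 0 in members over others in CON, 8 in UV and 5 in Rux. The medians of this list were 0.04, 0.16 and 0.03, and the lowest ratios in CON and Rux were −0.46 and −0.61. Pdgfra, which is in this list, stood at 265, 263 and 318 CPM in members against 234, 242 and 315 CPM. Between libraries, 3 of 4 tested pericyte genes and 2 of 2 endothelial genes were at least 2-fold higher in UV than in CON members, beside 2.84% of all genes. Their medians were 1.55 and 1.70, and the pericyte median in the other fibroblasts was −0.05. The 8 pericyte genes held 162 and 238 UMIs in CON and UV members, and the 7 endothelial genes 93 and 112. The fourth tested pericyte gene, Acta2, was at least 2-fold lower (−1.04). All 8 keratinocyte genes were below 0, with a median of −0.74 beside −1.11 in the other fibroblasts. In Rux over UV members, 1 of 4 pericyte genes, 1 of 2 endothelial genes and 3 of 3 melanocyte genes were at least 2-fold lower, beside 2.97% of all genes. Their medians were −0.90, −1.10 and −1.44. In the other fibroblasts the pericyte median was −0.07 and the melanocyte median −1.35. The part of other cells' RNA in the comparisons below was not tested.

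The comparison of UV with CON asks how these cells differed after chronic irradiation. Within members, 230 of 8101 genes (2.84%) were at least 2-fold higher in UV and 227 (2.8%) at least 2-fold lower, and the median over all genes was −0.05. Hmox1, the haem oxygenase induced by oxidative stress, stood at 38.7 CPM in CON, 303 in UV and 133 in Rux members. That was 2.96 higher on the log2 scale in UV (2.65 to 3.30), and 57.4% of UV members held a UMI of it against 19.9% of CON members. The other fibroblasts gave 2.92. Serpina3n, a protease inhibitor of the acute phase, stood at 65.9, 233 and 426 CPM, and its UV over CON ratio of 1.82 in members stood beside 0.57 in the other fibroblasts. Gfra1, at 72, 279 and 192 CPM, was higher by 1.95, and Sema3d, a secreted guidance cue, by 1.76, beside 1.71 and 0.36 in the other fibroblasts. Cyp2f2, a cytochrome P450, was higher by 2.27 in members and lower by a ratio of −0.30 in the others. Tmem176b was higher by 1.99, Tns3, a focal adhesion protein, by 1.74 and Lsmem1 by 1.78, beside 1.21, 0.48 and 1.91 in the other fibroblasts. The unnamed transcripts G530011O06Rik and Gm15726 were higher by 2.70 and 1.85, beside 2.32 and 2.02 in the other fibroblasts. The rule genes had ratios of 1.52 for Musk, 0.64 for Frmpd4, 0.03 for Lsamp, −0.51 for Thbs4 and −0.57 for Col8a1 in members. Members were chosen on counts of these genes, so the ratios are a description only, and in the other fibroblasts they were 0.99, 0.46, −1.90, −1.21 and −1.03.

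Among the genes lower in UV than in CON members were early response genes. Egr1, which growth factors and stress induce within minutes, stood at 4290 CPM in CON, 1420 in UV and 1251 in Rux members. Zfp36, an RNA-binding protein that shortens the life of cytokine mRNA, stood at 3138, 1050 and 864 CPM, and Gadd45b at 2258, 698 and 759 CPM. Over the 20 immediate early genes 7 were at least 2-fold lower in UV, none was 2-fold higher and the median was −0.69, while in the other fibroblasts, where 2.12% of all genes were lower, 9 were and the median was −0.75. Fos and Junb, which form AP-1, had ratios of −1.28 and −1.47. These genes are also induced when tissue is dissociated, and the part of handling was not tested. Irf1, a transcription factor of the interferon-γ response, stood at 693, 222 and 141 CPM, Hes1, a target of Notch, at 716, 174 and 194 CPM, and Ier2 at 733, 209 and 250 CPM. Ccl19, a chemokine that guides T cells and dendritic cells, stood at 83.8, 19.5 and 27.8 CPM. Ctla2a, a protease inhibitor, stood at 174, 46.7 and 263 CPM. When cells with at least 2 rule genes were taken as members, its UV over CON ratio was 0.055 (−0.08 to 0.19). Tex14 and Klhdc10 were lower by log2 ratios of −2.04 and −1.66, beside −1.67 and −1.32 in the other fibroblasts. Egr1, Zfp36, Gadd45b, Irf1, Hes1 and Ier2 had ratios of −1.59, −1.58, −1.69, −1.64, −2.04 and −1.81 in members. In the other fibroblasts these were −1.42, −1.37, −1.67, −1.57, −1.65 and −1.34. Ccl19 and Ctla2a had ratios of −2.09 and −1.89 in members beside −2.46 and −1.01.

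Of the 12 tendon and ligament genes 6 were tested in members, and 3 of these, Fmod, Tnc and Prg4, were at least 2-fold higher in UV, with a median of 0.95. In the other fibroblasts 2 of 7 were, with a median of 0.63, where 2.4% of all genes were at least 2-fold higher, and Prg4 was 2.47 higher there. Fmod (fibromodulin) stood at 75.7, 221 and 39.6 CPM in members and was held by 9.20%, 28.1% and 6.49% of them, so the UV level came with more cells that held it. Tnc (tenascin C), a matrix protein of loaded and healing tissue, stood at 150, 445 and 169 CPM in members against 72.4, 135 and 197 CPM in the others. Of 18 antioxidant genes Hmox1 and Gclm, a subunit of the enzyme that makes glutathione, were at least 2-fold higher, with a median of 0.26. Of 25 cytokine and senescence-associated secretory genes 5 were higher and 6 lower, with a median of −0.17. Csf1, which sustains macrophages, stood at 270, 759 and 1023 CPM and C3 at 470, 1128 and 1928 CPM, while Ccl11 (eotaxin) stood at 538, 183 and 251 CPM and Tslp at 40.7, 14.9 and 19.5 CPM. Of 12 genes of the p53 response and senescence 3 were lower, among them Cdkn1a (p21), at 347, 171 and 203 CPM, and none was higher. Of 30 JAK-STAT genes 2 were higher, Lif and Lepr, and 1 lower, Irf1, with a median of 0.00. The fibrillar collagens, with a median of −0.09, had none past 2-fold.

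**Figure D3:**
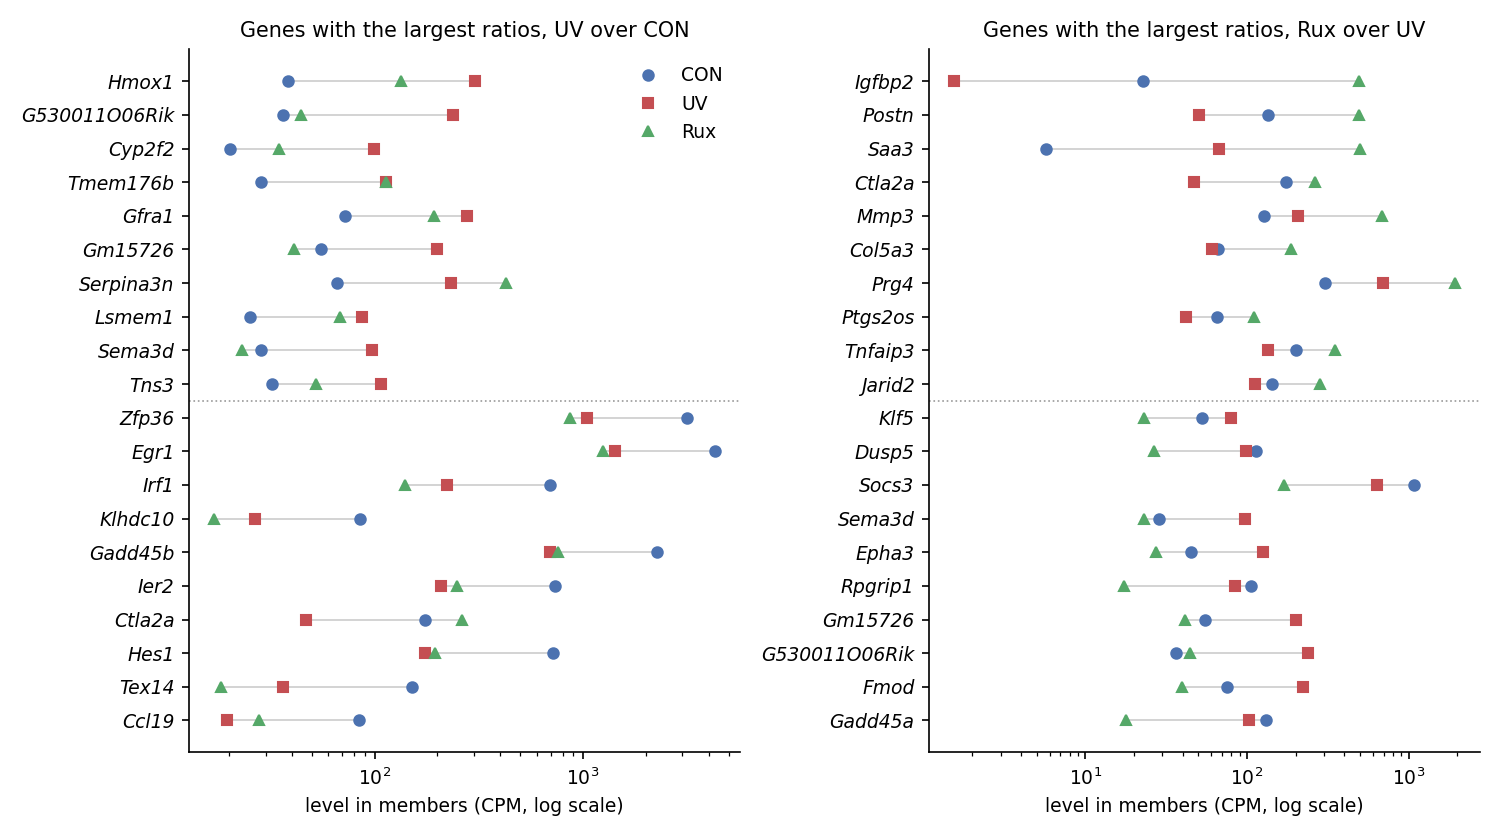
Levels in members of CON (circles), UV (squares) and Rux (triangles) in CPM on a log scale, for 20 named genes of UV over CON (left) and 20 of Rux over UV (right), 10 from either end of the ratios. Hmox1 went from 38.7 CPM in CON to 303 in UV and 133 in Rux, and Socs3 from 639 CPM in UV to 170 in Rux.

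The comparison of Rux with UV asks how these cells differed when the JAK inhibitor was given with UV. It shares the UV library with the comparison above, so the values of both stand side by side and are not correlated. Within members, 147 of 7872 genes (1.87%) were at least 2-fold higher in Rux and 234 (2.97%) at least 2-fold lower. Socs3, a feedback inhibitor that STAT3 induces, stood at 1077 CPM in CON, 639 in UV and 170 in Rux members, a Rux over UV ratio of −1.90 (−2.05 to −1.76) beside −1.76 in the other fibroblasts. Of 30 JAK-STAT genes 6 were at least 2-fold lower and none higher, with a median of −0.28 beside −0.08 in the other fibroblasts, where 4 were lower. Of all genes tested in the other fibroblasts, 0.662% were at least 2-fold higher in Rux and 1.72% lower. The 6 lower JAK-STAT genes of members were Socs3, Socs1, Cish, Stat2, Il13ra1 and Lepr. Socs1 stood at 122, 66.7 and 18.3 CPM and Stat2 at 53.3, 46.2 and 20.1 CPM, while the kinase genes Jak1 and Jak2 had ratios of −0.35 and −0.29. Lepr, the leptin receptor, stood at 23.2, 57.5 and 19.8 CPM in members and at 62.4, 36.9 and 51.6 CPM in the other fibroblasts, which were therefore lowest in the library where members were highest.

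Of 19 tested interferon-stimulated genes 8 were at least 2-fold lower in Rux and none higher, with a median of −0.84 beside −0.55 in the other fibroblasts, and 18 of the 19 were below 0. Irgm1, a GTPase of the interferon-γ response, stood at 88.3, 65.2 and 4.33 CPM in CON, UV and Rux members, and Iigp1, of the same family, at 215, 76.0 and 17.9 CPM. Isg15, a ubiquitin-like modifier, stood at 54.9, 49.3 and 14.9 CPM and Gbp2 at 144, 113 and 41.8 CPM. CON and UV stood close for Isg15 and Gbp2 and Rux lay below both. Cxcl9, a chemokine induced by interferon-γ, stood at 61.5, 25.2 and 2.17 CPM.

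Several genes that were higher in UV than in CON were lower in Rux than in UV. Fmod had a Rux over UV ratio of −2.48 (−2.78 to −2.19), G530011O06Rik of −2.41, Gm15726 of −2.28 and Sema3d of −2.06. In the other fibroblasts these ratios were −1.37, −1.52, −1.76 and −0.88. Epha3, an ephrin receptor, stood at 45.2, 126 and 27.5 CPM, a Rux over UV ratio of −2.19 beside −0.76 in the other fibroblasts. Other genes were less than 2-fold apart in CON and UV and at least 2-fold lower in Rux than in UV. Gadd45a, a stress gene of the growth arrest family, stood at 131, 102 and 17.9 CPM, Rpgrip1 at 106, 84.2 and 17.3 CPM, Dusp5, a phosphatase of ERK, at 114, 98.0 and 26.6 CPM, and Klf5 at 52.9, 79.6 and 22.9 CPM. Their Rux over UV ratios were −2.50, −2.27, −1.88 and −1.79 in members and −1.69, −1.30, −0.45 and −0.68 in the other fibroblasts. In the tendon and ligament list 3 of 6 were at least 2-fold lower (Fmod, Tnc and Tnmd) and Prg4 was higher, with a median of −1.05. In the other fibroblasts the median of that list was 0.33 over 7 genes. Of 18 antioxidant genes Hmox1 was at least 2-fold lower.

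Among the genes higher in Rux than in UV members, Prg4 (lubricin) stood at 302, 695 and 1928 CPM in CON, UV and Rux members, and Mmp3 (stromelysin) at 127, 206 and 684 CPM. The Mmp3 ratio of Rux over UV was 1.73 (1.57 to 1.89) in members beside 0.51 in the other fibroblasts, and that of Prg4 was 1.47 beside 0.86. Saa3, an acute phase protein, stood at 5.70, 66.7 and 501 CPM, and the other fibroblasts gave a Rux over UV ratio of 3.10 beside 2.90 in members. Tnfaip3, an inhibitor of NF-κB, stood at 200, 135 and 350 CPM, and Jarid2, a subunit of a Polycomb complex, at 142, 111 and 281 CPM. Their Rux over UV ratios were 1.37 and 1.33 in members beside 1.45 and 0.16 in the other fibroblasts. Ptgs2os, listed as a transcript opposite Ptgs2, stood at 65.1, 42.1 and 110 CPM, and since the strand setting of the counting is not given in the sources used here, its reads and those of Ptgs2 may not be separate. Of 26 cytokine and senescence-associated secretory genes 6 were at least 2-fold higher and 1, Cxcl9, lower, with a median of 0.54 beside 0.25 in the other fibroblasts. Ccl2, which draws monocytes, stood at 2551, 1831 and 4286 CPM. Il6 went the other way, at 1346, 1058 and 664 CPM.

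**Figure D4:**
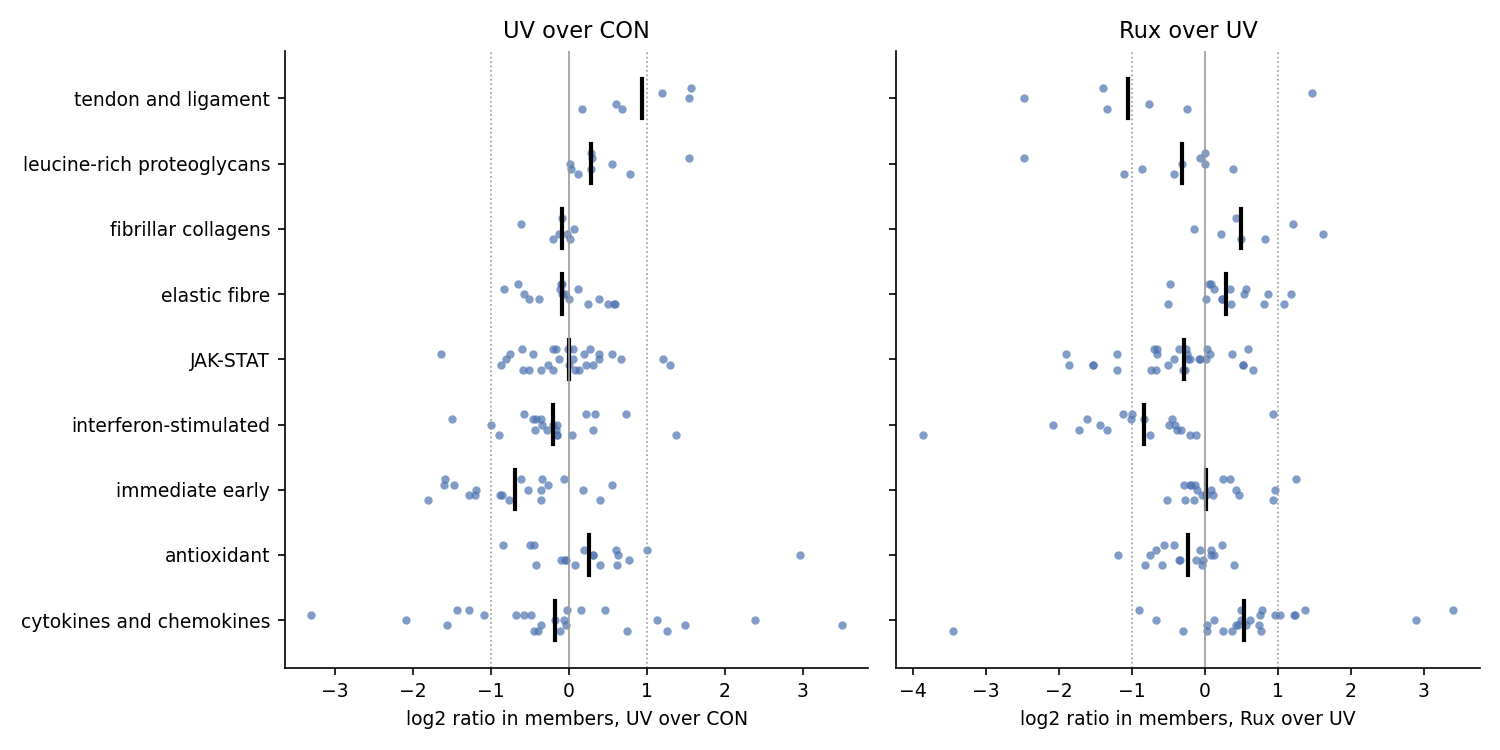
Log2 ratios in members of UV over CON (left) and Rux over UV (right) for the tested genes of 9 lists, with 1 point per gene, black bars at the list medians and dotted lines at 2-fold. Immediate early genes lie mostly below 0 on the left (median −0.69) and interferon-stimulated genes on the right (median −0.84), while tendon and ligament genes have medians of 0.95 and −1.05.

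A few cells carried several of the largest Rux values. Igfbp2, an IGF-binding protein, stood at 22.8, 1.54 and 496 CPM in CON, UV and Rux members on 56, 3 and 1603 UMIs, and only 13, 3 and 20 members held it, 1 Rux cell with 664 UMIs. The Rux over UV ratio of 8.11 (6.78 to 10.6) therefore rests on 20 cells. Postn (periostin), a matricellular protein of healing and fibrotic tissue, stood at 136, 50.8 and 492 CPM, and the 10% of Rux members with most of it held 95.7% of its UMIs. The 20 Rux members with an Igfbp2 UMI differed from the other 242 in much else. They stood at 12410 CPM of Col1a1 against 1031, 13946 CPM of Col3a1 against 2088, 2563 CPM of Postn against 202, and 308 CPM of Lrrc15 against 11.3. Grem1, a BMP antagonist, stood at 192 CPM in them and at 0 in the other Rux members, and Crabp1 at 262 against 2.12 CPM. They held Cilp at 1851 CPM and Thbs4 at 578 CPM, and Frmpd4 and Musk at 25.2 and 50.4 CPM against 243 and 174 CPM. They were deeper as well, with a median of 15600.5 UMIs against 10752. In CON the 13 members with an Igfbp2 UMI stood at 4136 CPM of Col1a1 against 1437, and the 3 such cells of UV at 3458 against 1332.

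Without members that held an Igfbp2 UMI, a step added after the values were seen, the collagen values of Rux were lower. The fibrillar collagen median of Rux over UV went from 0.49 to 0.03 and that of members over others in Rux from −0.46 to −0.89. The median of the papillary list in Rux members over the others went from −0.43 to −2.0 and that of the genes marking other fibroblast groups from −0.83 to −1.82. Genes at least 2-fold higher in Rux went from 147 to 106 and lower from 234 to 267. The Postn ratio went from 3.27 to 2.02 and the Ctla2a ratio from 2.49 to 1.41, and Mfap4 was 0.89 higher in Rux members than in the others in place of 1.37, which ends its place among the genes 2-fold higher in all 3 libraries. Col5a3, a fibrillar collagen among the 10 genes with the highest Rux over UV ratio, stood at 66.3, 61.1 and 188 CPM in all members. With those members left out no Igfbp2 UMI remained in Rux or UV.

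**Figure D5:**
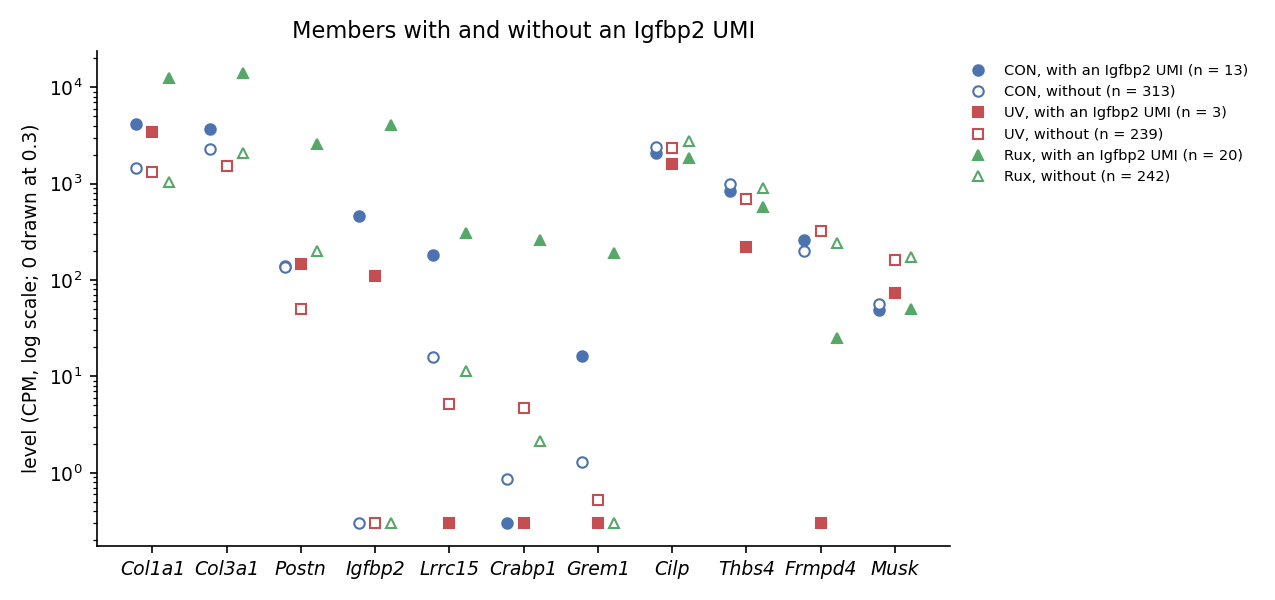
Summed CPM, on a log scale with 0 drawn at 0.3, of 11 genes in members with an Igfbp2 UMI (filled) and without (open) in CON (circles), UV (squares) and Rux (triangles). The 20 Rux members with Igfbp2 lie above all other points for Col1a1, Col3a1 and Postn and below the other Rux members for Frmpd4 and Musk.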

How the data were processed

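Full-thickness dorsal skin of CON, UV and Rux mice was profiled by 10x Genomics 3′ v3.1 chemistry. The authors deposited, for each library, a matrix of raw UMI counts per gene and cell over 32285 genes, not normalized. The matrix header names Cell Ranger 7.0.0, the submitters' processing notes name Cell Ranger 6.1.2, Seurat 5.3.0 and mm10, and the intron and strand settings are not given in the sources used here. Rows with the same symbol were summed. Barcodes under 500 genes or over 10% mitochondrial UMIs were dropped, no doublets were removed in the main values, and the members were selected on the 5 rule genes. UMIs were summed over the cells of a class and scaled to CPM, with 0.5 UMI added to each sum in a log2 ratio. Genes whose mean level over the groups compared reached 10 CPM were described, and past the fold means at least 2-fold. Intervals were exact Poisson (levels), Clopper-Pearson (shares) and the exact binomial split (ratios), all for counting error only. The 0 of 192 keratin-rich cells of UV was given a limit of 3 counts. The Xist counts of 0 were given their exact Poisson upper bounds, and other counts of 0 were printed without a limit. The ratios and intervals were tested on simulated data before use.

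The members and the 42 gene lists (467 symbols, 5 not found in the matrices) were chosen with earlier results of these data known. The genes named were the 20 with the largest minimum and the 15 with the lowest maximum ratio to the other fibroblasts, at a mean of 50 CPM or more in members (higher) or in the others (lower), and the 10 highest and 10 lowest of each library comparison whose mean reached 50 CPM on 100 UMIs or more, besides the rule genes, Cilp, Myoc and genes of the lists. Genes opposite in direction to the other fibroblasts, and those compared by Igfbp2, were chosen after their values were seen. Alternatives were other filters on cells, removal of the highest Scrublet scores at 0.8% per 1000 cells (scanpy 1.11.5), other numbers of rule genes, thinning to 5000 UMIs, other scalings, other minimum levels, cells of 5000 to 20000 UMIs, comparators without any rule gene, and members without Igfbp2. Python 3.11.15, numpy 2.4.6, scipy 1.17.1, pandas 2.3.3 and matplotlib 3.10.9 were used. Coordinates are from GENCODE M21 and promoter windows from RefSeq. Some items that would have been listed are not reported here.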

Additional observations from a re-analysis of the deposited data

Results flagged for a closer look

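Cells outside the fibroblasts also held the rule genes. Among cells with enough collagen and proteoglycan UMIs that were set aside because they held a Ptprc, Epcam or Cdh5 UMI, 27 of 409 in CON (6.60%), 22 of 454 in UV (4.85%) and 28 of 461 in Rux (6.07%) held at least 3 rule genes. These cells were used in no comparison, and no background level for them was measured. Among kept cells under the collagen and proteoglycan minimum the numbers were 65 of 7761, 28 of 5413 and 29 of 4665, and among cells that failed the filter they were 0 of 1717, 0 of 1384 and 0 of 1390.

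Some genes moved in opposite directions in members and in the other fibroblasts, with counting intervals on either side of 0, and the difference itself was not tested. For UV over CON, Cyp2f2 had log2 ratios of 2.27 in members and −0.30 in the others, Plxna2, a semaphorin receptor, 1.05 and −0.18, and Postn −1.41 and 0.93. For Rux over UV, members were higher and the others lower for Ptgs2os (1.38 and −0.72), Ltbp1, which holds latent TGF-β (1.28 and −0.31), Plau, the urokinase (1.13 and −0.09), and Igfbp5 (1.05 and −0.13). Members were lower and the others higher for Tnc (−1.40 and 0.55), Slit2, the ligand of Robo receptors (−1.36 and 0.58), Lpl, the lipoprotein lipase (−1.35 and 0.18), and Cobll1 (−1.11 and 0.57).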

How the results depend on the processing

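With at least 2 rule genes the members numbered 714, 580 and 627 in CON, UV and Rux (21.7%, 11.2% and 13.1% of fibroblasts), with at least 4 they numbered 88, 87 and 102 (2.68%, 1.69% and 2.14%), and after thinning to 5000 UMIs they numbered 193, 152 and 152, with a Rux share of 3.92%. With at least 2 rule genes 37 genes were lower in all 3 libraries and 151 lower in UV. With at least 4, 446 genes were higher and 439 lower in UV, and 268 higher and 437 lower in Rux. With a minimum of 50 CPM the counts were 23 higher and 22 lower in members, 78 and 40 in UV and 43 and 66 in Rux, and with a minimum of 10 UMIs they were 105 and 259, 706 and 779, and 545 and 793, a difference in how many genes entered. Against fibroblasts without any rule gene, 73 genes were higher in members.

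Among the single genes named and the lists with a median past 2-fold, some values changed sign. With at least 2 rule genes these were Col11a1 in Rux members over others (0.055), Ctla2a in UV over CON (0.055) and the median of the pericyte list in UV and Rux (0.043 and 0.56). That median in UV was 0.25 with at least 4 rule genes and 0.30 with a minimum of 10 UMIs. Without members that held an Igfbp2 UMI, which was chosen after seeing the data, the Igfbp2 ratio of Rux over UV was −0.56 with 0 UMIs in both libraries, which is set by the total UMIs. List medians nearer 0 changed sign as well, among them fibrillar collagens in Rux members over others (0.11 with at least 2 rule genes), follicle dermal genes in the same comparison (0.49 with at least 2), the papillary list in Rux over UV under 5 of 12 alternatives, and JAK-STAT genes in UV over CON under 7 of 12. The cause of the other sign changes was not tested. Of the counts and shares recomputed, 77 kept within their limits and 35 did not, all printed here. No paired analysis was possible because each condition has 1 library. With 1 library per condition the intervals hold no spread between animals, and genes of few UMIs, such as Cxcl13 in CON, are the least certain.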
